A study of Mus musculus with 2 samples.

Results

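The loci of 6 osteoblast genes were examined, the matrix genes Col1a1, Col1a2, Col3a1, Sparc and Fn1 and the transcription factor gene Runx2. Sequencing reads recovered with an antibody against Tnni2 were counted there, in 1 library of mutant mouse cells and 1 of wild-type cells. The genes were chosen for their known role in bone-forming cells and not by their read counts, though with earlier results of these data known. Each was taken as a fixed window over the gene. Together the 6 windows span 508 kb. Of the distinct read positions on chromosomes 1 to 19 they held 619 of 2927228 in the mutant library (0.0211%). Of those in the wild-type library they held 682 of 2821498 (0.0242%). A distinct position is a chromosome, a 5′ end and a strand, counted once however many reads share it.

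The assay was chromatin immunoprecipitation with sequencing (ChIP-seq) in primary osteoblasts, cells taken from the animal and cultured, of strain 129sv. The mutant library came from mice homozygous for Tnni2 del175k and the other from their wild-type littermates. The series text gives 3 animals, without saying how they were combined, and no age. Tnni2 encodes the fast skeletal muscle form of troponin I, the inhibitory subunit of the troponin complex. With 1 library per genotype, each comparison below sets these libraries, not the genotypes, against each other, without replicates and without p-values. An input library or one from a control antibody was not analysed here, so the density of each gene was set against its own surroundings. Reads of genomic DNA carry no expression values, and the label of the cells could not be checked against osteoblast markers.

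Bone matrix is built on type I collagen, a triple helix of 2 chains from Col1a1 and 1 chain from Col1a2. Osteoblasts secrete it together with smaller amounts of other proteins that organise the fibrils and bind mineral. Runx2 is the transcription factor required for cells to become osteoblasts, and the collagen and matrix genes are among those expressed as they mature.

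The windows are given in the coordinates of the deposited reads, counted from 1, and were placed by the gene coordinates of build mm9. The last read on chromosome 7 ends at 152524453, which from general knowledge lies within that chromosome in mm9 and beyond its end in mm8 and GRCm38. The series text names mouse reference 8, so the build is uncertain, and no annotation of mm9 was used to check where exons, introns or start sites fall. Col1a1 was taken as chr11:94797000-94815000, Col1a2 as chr6:4455000-4492000, Col3a1 as chr1:45368000-45407000, Sparc as chr11:55208000-55234000, Fn1 as chr1:71632000-71700000 and Runx2 as chr17:44632000-44952000. Col1a1, Col1a2 and Col3a1 lie on the plus strand and the others on the minus strand, from general knowledge for Col1a1 and Fn1 and from the RefSeq promoter table for the others. In the RefSeq gene table of GRCm38, used for names only, each gene lies on the same chromosome as its window and is no longer than the window. In that table Supt3 overlaps Runx2, so reads there cannot be assigned to 1 of these genes. By the same table the flanks, 100 kb on each side, hold further protein-coding genes, among them Sgca, Ppp1r9b and Itga3 near Col1a1 and Col5a2, another fibrillar collagen, near Col3a1.

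The sequences just before the annotated starts show how unlike these promoters are in base composition. A link between base composition and the read counts at the start edges below was not tested. Of the 6 genes, 4 were matched by symbol in the RefSeq promoter table of GRCm38.p6, without Col1a1 and Fn1. The 250 bases before the start are printed 5′ to 3′ on the gene's strand for 3 of them, at chr6:4505368-4505617 (plus strand, Col1a2), chr1:45311288-45311537 (plus strand, Col3a1) and chr17:44814628-44814877 (minus strand, Runx2), all in GRCm38.p6. Capitals mark 4 motifs searched on both strands: the TATA box core TATAAA, the CAAT box letters CCAAT, the GC box core GGGCGG and the RUNX core ACCACA. No match overlapped another in the sequences shown.
Col1a2: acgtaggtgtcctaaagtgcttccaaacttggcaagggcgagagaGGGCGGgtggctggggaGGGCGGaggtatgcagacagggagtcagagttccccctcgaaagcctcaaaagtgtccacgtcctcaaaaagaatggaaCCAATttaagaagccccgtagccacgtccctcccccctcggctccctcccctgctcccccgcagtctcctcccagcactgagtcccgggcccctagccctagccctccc
Col3a1: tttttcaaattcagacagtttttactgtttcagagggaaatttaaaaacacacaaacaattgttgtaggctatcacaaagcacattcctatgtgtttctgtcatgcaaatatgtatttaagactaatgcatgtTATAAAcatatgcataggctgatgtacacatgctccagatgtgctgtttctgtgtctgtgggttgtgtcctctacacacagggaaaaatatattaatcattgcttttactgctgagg
Runx2: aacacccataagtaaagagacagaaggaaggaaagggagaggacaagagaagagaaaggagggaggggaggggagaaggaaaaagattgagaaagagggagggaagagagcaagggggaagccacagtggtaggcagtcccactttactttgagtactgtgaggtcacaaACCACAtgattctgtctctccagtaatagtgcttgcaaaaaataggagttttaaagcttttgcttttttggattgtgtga

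The Col1a2 sequence was 62% G and C, above 76.7% of the 32851 promoters in the table, with 11 CG pairs against a median of 6. It held the GC box core at 2 places and CCAAT at 1. The GC box core occurred in 32.7% of all promoters of this length, and CCAAT was found in 33.8%. The Col3a1 sequence was 35.2% G and C, above only 5.0% of promoters, with 0 CG pairs and 1 TATAAA, a motif in 12.4% of all promoters. The Runx2 sequence was 44.8% G and C with 0 CG pairs and 1 ACCACA, core letters bound by RUNX factors, found in 14.0% of all promoters. ACCACA was added to the search after the sequences had been seen. The Sparc sequence, not printed, was 54% G and C with 4 CG pairs and held none of these motifs. A match describes the letters only and is not a binding site.

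Summed over the 6 genes, the windows were no denser in reads than the sequence around them. The mutant windows held 12.2 positions per 10 kb and their flanks 12.8, a ratio of 0.949 (95% exact binomial interval 0.863 to 1.04). For the wild type these values were 13.4 and 13.2, a ratio of 1.02 (0.928 to 1.11). A summed excess over the flanks above 1.04-fold (mutant) or 1.11-fold (wild type) thus lay outside counting error. Runx2 holds most of the summed length. Without it the mutant ratio was 0.754 (0.642 to 0.881), which lies below 1, and the wild-type ratio was 0.895 (0.772 to 1.03). Without Col3a1 the mutant ratio also lay below 1, at 0.877 (0.795 to 0.966). All intervals given here cover counting error only.

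**Figure D1:**
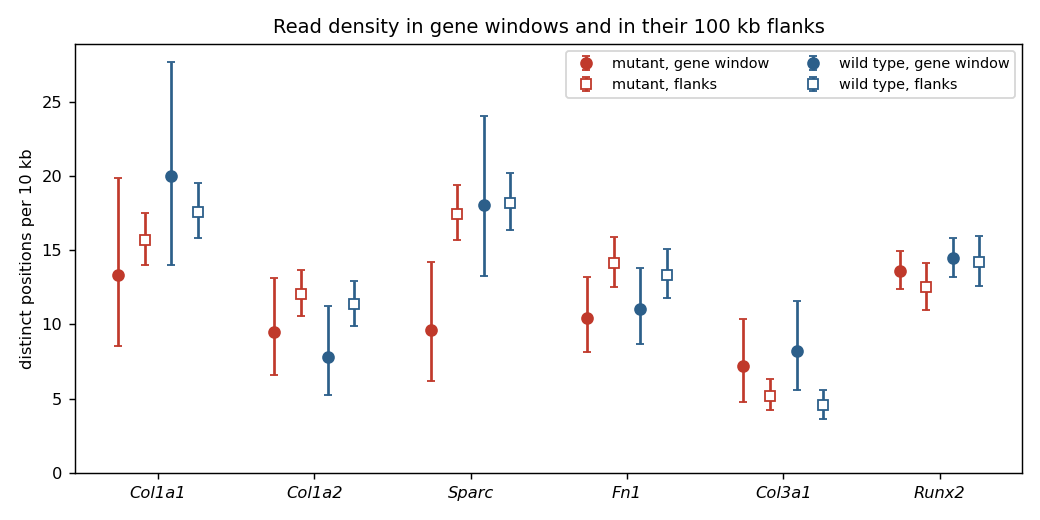
Distinct read positions per 10 kb (vertical axis) in each gene window (filled circles) and in its 100 kb flanks (open squares), mutant in red and wild type in blue, not scaled for depth. Bars are 95% exact Poisson intervals; the flanks of Col3a1 are the sparsest in both libraries, and the mutant Sparc window lies below its flanks.

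Gene by gene, 2 of 6 windows differed from their flanks beyond counting error in the mutant library, Sparc and Fn1, both sparser than their flanks. In the wild-type library 1 of 6 did, Col3a1, which was denser. Reads are clustered along the genome, so such differences are common. To measure how common, chromosomes 1 to 19 were tiled with windows of each gene's length and every tile was compared with its own flanks in the same way. Averaged over the 6 lengths, the interval excluded 1 for 20.2% of mutant and 21.1% of wild-type tiles, where it did so for 33.3% and 16.7% of the 6 genes. With 6 genes these counts are near that background. The median ratio of the 6 genes was 0.817 (mutant) and 1.01 (wild type), where the medians of tiles, over all 6 lengths and both libraries, lay at or above 0.987 and below 1.

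Col1a1, which encodes the main chain of type I collagen, held 24 mutant and 36 wild-type positions, and its flanks 314 and 352. The ratio of window to flank density was 0.849 (0.536 to 1.29) for the mutant and 1.14 (0.783 to 1.60) for the wild type, and both intervals include 1. Of tiles of this length, 15.2% (mutant) and 15.5% (wild type) had an interval that excluded 1. The flanks of Col1a1 are uneven, with 132 and 122 positions upstream and 182 and 230 downstream. Against the upstream side alone the wild-type ratio was 1.64 (1.098 to 2.39).

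Col1a2, which encodes the other chain of type I collagen, held 35 mutant and 29 wild-type positions, and its flanks 241 and 227. The ratios were 0.785 (0.534 to 1.12) and 0.691 (0.452 to 1.02), both below 1 with intervals that include it. With flanks of 50 kb the wild-type interval excluded 1, at 0.622 (0.400 to 0.937), as it did against the downstream flank alone, at 0.576 (0.372 to 0.865). Intervals excluded 1 for 18.4% and 19.2% of tiles of this length. Cut into 4 sections of equal length, the window was thinly covered in the first, with 2 mutant and 5 wild-type positions. The mutant library had no position in a stretch of 8.86 kb that begins 1.95 kb inside the start edge.

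Col3a1 encodes type III collagen, a fibrillar collagen of soft connective tissue that is also made by immature osteoblasts. Its window held 28 mutant and 32 wild-type positions, or 7.18 and 8.20 per 10 kb, the first of these the lowest mutant density of the 6 genes. The flanks were sparser still, with 104 and 91 positions, or 5.20 and 4.55 per 10 kb. The ratio was 1.38 (0.875 to 2.11) for the mutant and 1.80 (1.17 to 2.72) for the wild type. The wild-type value lay above 99.0% of tiles of this length and the mutant value above 92.3%. Intervals excluded 1 for 18.6% and 19.4% of tiles. The wild-type interval included 1 against the downstream flank alone, at 1.49 (0.934 to 2.35), and with the window widened by 5 kb on each side, at 1.44 (0.952 to 2.14). The positions lay mostly towards the far end of the gene. From the start edge, 4 sections of equal length held 3, 5, 8 and 12 mutant positions and 5, 6, 12 and 9 wild-type positions.

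Sparc encodes osteonectin, a secreted protein of bone matrix that binds collagen and calcium. Its window held 25 mutant and 47 wild-type positions, while its flanks held 349 and 364. The mutant window was therefore sparser than its surroundings, at 0.551 times the flank density (0.352 to 0.827), and the wild-type window was not, at 0.993 times (0.717 to 1.35). Only 5.84% of tiles of this length lay lower in the mutant library, and intervals excluded 1 for 16.8% of mutant and 17.4% of wild-type tiles. The mutant interval lay below 1 with every flank, window and read setting tried. The change between libraries in the ratio of window to flank was 0.555 (exact conditional interval of the odds ratio 0.320 to 0.943). It was the lowest of the 6 genes, and the intervals of the other genes included 1. Taken as the plain quotient of the 2 ratios, the change was lower in 2.91% of tiles of this length. How often its interval excludes 1 among tiles was not counted.

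Fn1 encodes fibronectin, the glycoprotein on which cells assemble the first collagen fibrils. It held 71 mutant and 75 wild-type positions, and its flanks 283 and 267. The ratios were 0.738 (0.561 to 0.960) and 0.826 (0.631 to 1.07). Both libraries thus had the window below its flanks, with an interval that excludes 1 for the mutant here, and the change between the libraries was 0.893 (0.609 to 1.31). Intervals excluded 1 for 21.8% and 23% of tiles of this length, and 9.99% of mutant tiles lay lower than Fn1. Against the flank upstream of the gene alone the mutant interval included 1, at 0.885 (0.650 to 1.20). The wild-type interval excluded 1 with flanks of 50 kb, at 0.735 (0.5497 to 0.976), and against the downstream flank alone, at 0.730 (0.546 to 0.970).

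Runx2, by far the longest of the genes, held 436 mutant and 463 wild-type positions, and it gives the narrowest limits. The ratios to its flanks were 1.09 (0.931 to 1.28) and 1.02 (0.877 to 1.19), and intervals excluded 1 for 30.4% and 31.9% of tiles of this length. Density was uneven across the locus. The upstream flank held 98 and 100 positions and the downstream flank 152 and 184. Against the upstream side alone Runx2 was denser in both libraries, at 1.39 (1.11 to 1.75) and 1.45 (1.16 to 1.81). Against the downstream side the values were 0.896 (0.744 to 1.09) for the mutant and 0.786 (0.661 to 0.938) for the wild type. Within the gene, 4 sections of 80 kb held, from the start, 83, 89, 124 and 140 mutant positions and 110, 90, 105 and 158 wild-type positions, the most in the last section of both.

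**Figure D2:**
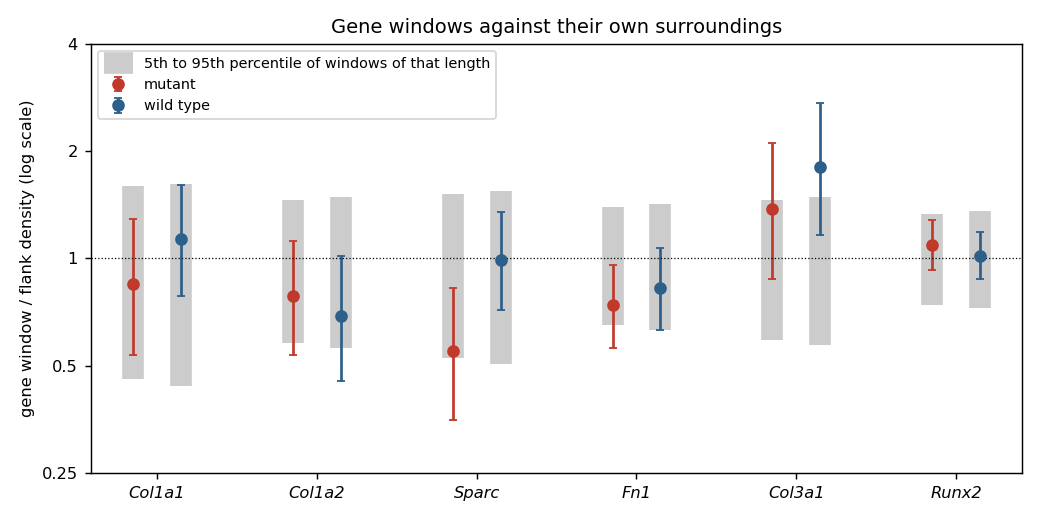
Density of each gene window divided by that of its flanks (vertical axis, log scale) in the mutant (red) and wild-type (blue) library, with 95% exact intervals. Grey bars span the 5th to 95th percentile of all tiles of the same length; of the 12 points the wild-type Col3a1 value of 1.80 is the one outside its grey bar, and the mutant Sparc value of 0.551 lies near the lower end of its own.

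The libraries were next compared directly. Counts were scaled to the distinct positions on chromosomes 1 to 19, and a ratio is mutant over wild type. Over the 6 windows the ratio was 0.875 (0.783 to 0.977), and over their flanks it was 0.937 (0.873 to 1.01). Intervals excluded 1 for 21.2% of single tiles of Runx2 length, and how often they do for sums of 6 other windows was not counted. The change of windows relative to flanks was 0.934 (0.818 to 1.06) and did not exceed counting error. Sparc carries part of the summed difference, since without it the ratio was 0.902 (0.805 to 1.01) and its interval included 1. With each gene given equal weight the ratio was 0.803. Of the 6 genes 5 had a ratio below 1, but the interval excluded 1 for Sparc alone. Averaged over the 6 lengths, 8.67% of tiles had an interval that excluded 1, against 16.7% of the genes.

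Sparc had the lowest ratio, 0.513 (0.302 to 0.850). Among 89738 tiles of its length 1.14% lay lower, and intervals excluded 1 for 5.39% of them. Tiles were also divided by their number of positions into 5 classes of about equal size. Sparc falls in the fourth of these, where the summed ratio was 0.978 and 0.501% of tiles lay lower than Sparc. The Col3a1 window falls in the sparsest class of tiles of its own length, with a summed ratio of 1.13. Scaled to chromosome 11, whose own ratio was 0.967, Sparc stood at 0.530 (0.313 to 0.879). Its flanks had a ratio of 0.924 (0.796 to 1.07).

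Col1a1, also on chromosome 11, had the next lowest ratio, 0.643 (0.367 to 1.11), with 7.94% of tiles lower and intervals excluding 1 for 4.57% of tiles. With every aligned read counted, at 24 and 42 reads, its ratio was 0.572 and the interval excluded 1. Col3a1 had 0.843 (0.489 to 1.45), where intervals excluded 1 for 6.41% of tiles, Runx2 0.908 (0.795 to 1.04), where they did for 21.2%, and Fn1 0.912 (0.650 to 1.28), where they did for 8.32%. Col1a2 was the one gene above 1, at 1.16 (0.691 to 1.97), with 6.14% of tiles excluding 1. The intervals of all 6 genes overlap, and differences between the genes were not tested. For Col1a1, Col1a2 and Col3a1, with 24 to 36 distinct positions per library, an unequal count of the size seen was not distinguishable from an equal one.

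**Figure D3:**
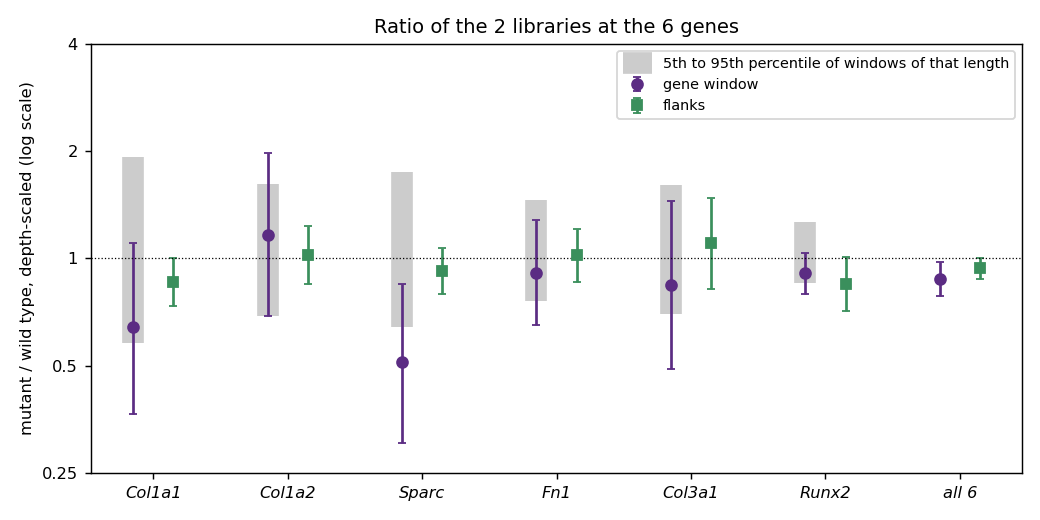
Depth-scaled mutant to wild-type ratio (vertical axis, log scale) of each gene window (purple circles) and of its flanks (green squares), with 95% exact intervals and, in grey, the 5th to 95th percentile of tiles of the same length. Sparc, at 0.513, is the one gene whose value lies below its grey bar, and the sum of the 6 windows lies at 0.875.

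The 12 flanks of 100 kb were compared in the same way. Of these 2 had intervals that excluded 1, those downstream of Col1a1 and of Runx2, with ratios of 0.763 (0.624 to 0.930) and 0.796 (0.638 to 0.992). Among all windows of 100 kb, 10.2% had an interval that excluded 1. Intervals that excluded 1 were thus found beside the genes as well as over Sparc. The ratio of the Sparc window, 0.513, was further from 1 than that of either flank, but this window spans only 26 kb. Ratios scatter more in short windows. The 5th to 95th percentile of tiles was 0.643 to 1.75 at Sparc length and 0.854 to 1.26 at Runx2 length.

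Along Sparc, from the start edge, 4 sections of 6.5 kb held 4, 11, 7 and 3 mutant positions and 11, 11, 9 and 16 wild-type positions. The intervals of the 4 ratios overlap, and differences between the sections were not tested. The last section had a ratio of 0.181 (0.0337 to 0.631), where intervals excluded 1 for 3.04% of all windows of 6.5 kb. In sections of 10 kb the mutant library lay below the wild type in all 7 sections from 40 kb upstream of the start edge to 30 kb beyond it, with 82 positions against 130, a ratio of 0.608. In sections of 5 kb over the same stretch the mutant count was lower in 10 of 14, equal in 2 and higher in 2. The rest of the window and flanks held 292 and 281 positions, a ratio of 1.002 after scaling. Taking out a stretch picked for its low counts raises the ratio of what is left. This value therefore does not show that the difference is confined to the stretch. Within the rest, the mutant count was also lower in every section of 10 kb from 50 to 110 kb beyond the start edge. The stretch of 7 sections was chosen after its values had been seen and is given without an interval. Such runs are not particular to Sparc. At Col1a1 the mutant count was lower in every section of 10 kb from the start edge to 90 kb beyond it, a longer run. How often runs of this kind occur along the chromosomes was not counted.

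Along Runx2 the first 80 kb had the lowest ratio, with 83 positions against 110, or 0.727 (0.540 to 0.976). Intervals excluded 1 for 9% of windows of 80 kb. Of the 16 sections of 20 kb in the gene, 1 had an interval that excluded 1, the fourth from the start at chr17:44872001-44892000, with 17 and 34 positions and a ratio of 0.482 (0.253 to 0.887). Among all windows of 20 kb this held for 4.81%, and 1 of 16 is close to that share. The section at the start edge held 13 and 24 positions, and the fullest sections in the gene held 38 mutant and 45 wild-type positions. Fn1 was more even, with 16, 21, 18 and 16 mutant positions and 21, 16, 22 and 16 wild-type positions in 4 sections of equal length.

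**Figure D4:**
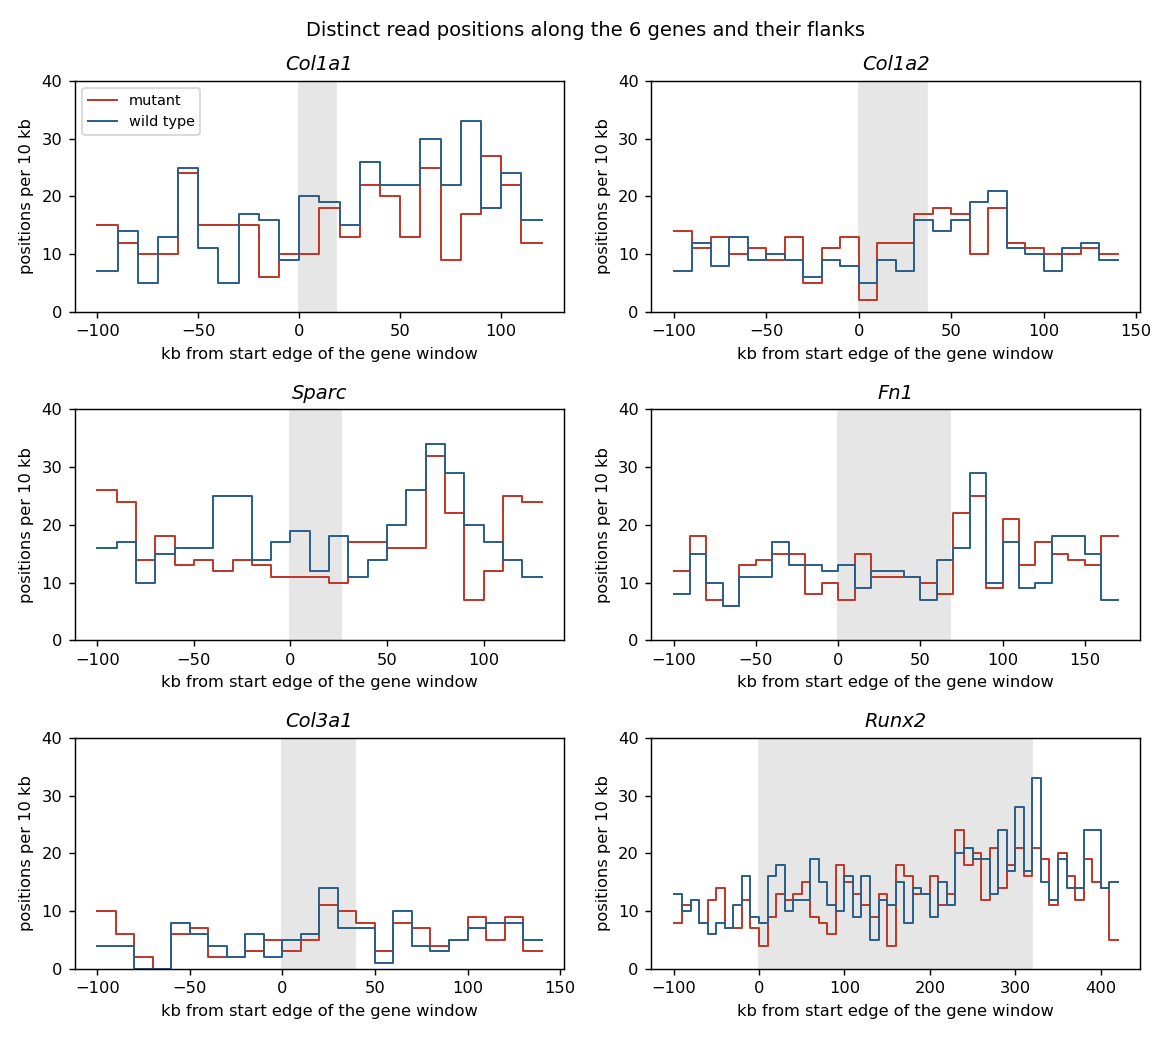
Distinct read positions in sections of 10 kb (vertical axis, not scaled for depth) against the distance in kb from the start edge of each gene window, in the direction of transcription, for the mutant (red) and wild-type (blue) library. Grey marks the gene window, and no section holds more than 34 positions. At Sparc the mutant line lies below the wild-type line over the window and the 40 kb before it. At Col1a1 the mutant line lies below from the start edge to 90 kb beyond it.

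A local pile-up of reads, such as binding at a promoter or enhancer would give, was sought in bins of 500 bp. Of the 1022 bins that touch the 6 windows, 0 were enriched in either library by a Poisson test with a Benjamini-Hochberg q under 0.01. Such bins are rare in these libraries, at 0.00205% of all mutant and 0.00212% of all wild-type bins, so 0 of 1022 does not set the genes apart. A called bin held at least 8 positions in either library. The fullest bin in the genes was in Fn1, at chr1:71658001-71658500, with 6 wild-type positions, or 10.8 times background with a Benjamini-Hochberg q of 0.156. The most mutant positions in a bin were 5, reached at 2 bins of Runx2. The first of these, at chr17:44677501-44678000, stood at 6.25 times background. The mutant library's fullest Sparc bin, at chr11:55225001-55225500, held 4 positions and its fullest Col1a1 bin, at chr11:94810001-94810500, also held 4. The fullest bin of Col1a2, Fn1 or Col3a1 in the mutant library held 3. Empty bins ranged from 45.3% of those in wild-type Sparc to 70.9% of those in mutant Col3a1, against 60.1% of mutant and 61.8% of wild-type bins over chromosomes 1 to 19.

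The start edges of the windows, where promoters would lie if the windows are placed well, held few reads. Within 2 kb of the edge the mutant library held 4 positions at Col1a1, 4 at Col1a2, 3 at Col3a1, 5 at Sparc, 0 at Fn1 and 0 at Runx2. The wild-type library held 4, 4, 1, 11, 3 and 3 in the same order. Summed, these were 16 and 26 positions. The mutant edges lay below the density of the flanks, at 0.517 (0.295 to 0.842), and the wild-type edges did not differ beyond counting error, at 0.818 (0.533 to 1.20). Neither library thus had an excess at the edges. Within 1 kb the mutant interval included 1, at 0.582 (0.266 to 1.11). It excluded 1 within 5 kb, at 0.566 (0.409 to 0.763), and with every aligned read counted, at 0.478 (0.273 to 0.779). The ratio between the libraries at the edges was 0.593 (0.297 to 1.15). No count of how often other edges fall as low was made for these sums.

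Further features of the reads over the genes were set beside those of their flanks. Repeated reads, those at a position already counted, were 7.20% of mutant reads over the windows (95% exact interval 5.35 to 9.43%) and 7.39% over the flanks (6.18 to 8.76%). The wild-type shares were 11.3% (9.16 to 13.8%) and 10.9% (9.45 to 12.4%). Over chromosomes 1 to 19 they were 8.22% and 11.6%. No position in any of the 6 windows carried more than 3 reads. None of the positions in the windows or flanks was found in both libraries, and 0 of 619 mutant window positions allows a share of up to 0.594% (exact upper limit). Over the flanks the upper limits were 0.239% (mutant) and 0.232% (wild type). Over chromosomes 1 to 19 the shared positions made up 0.245% of the mutant and 0.254% of the wild-type library, just above the flank limits. Pairs of reads facing each other 150 to 280 bp apart numbered 36 over the mutant windows and 51 over the wild-type windows. These were 1.5 (0.871 to 2.63) and 1.65 (1.03 to 2.66) times as many as at 500 to 630 bp. Over the flanks the values were 1.71 (1.25 to 2.34) and 1.44 (1.11 to 1.89), and over chromosomes 1 to 19 they were 1.49 and 1.56.

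The strands were balanced over the windows as a whole, with 50.1% of mutant positions (46.1 to 54.1%) and 51.8% of wild-type positions (47.9 to 55.6%) on the plus strand. Sparc and Runx2 departed from this in the wild-type library. At Sparc 15 of 47 wild-type positions, or 31.9% (19.1 to 47.1%), lay on the plus strand, against 14 of 25 in the mutant library. At Runx2 256 of 463 did, or 55.3% (50.6 to 59.9%), against 224 of 436. Intervals excluded 50% in 2.82% of wild-type windows of Sparc length and 3.63% of those of Runx2 length.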

How the data were processed

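The deposited files list 1 aligned read of 36 bp per line. The aligner was Bowtie, per the submitters' processing notes. Its version is not given in the sources used here, nor are filters. The authors' deposited score, a constant 255, was not used. Positions (start and end of each read) are as deposited by the authors, other than that they are counted here from 1. Reads were reduced to distinct positions. Gene windows and flanks were counted by 5′ end. Ratios carry exact Clopper-Pearson 95% intervals of the split of counts, scaled by length or by positions on chromosomes 1 to 19. Tiles with under 100 positions in their flanks, both libraries together, were left out of the comparison with flanks. For 500 bp bins, reads were shifted by 50% of the fragment length (215 bp in the mutant, 212 bp in the wild-type library) and set against the larger of the mean bin and the surrounding 10 kb. Calling and intervals were tested on simulated Poisson counts of even density. Such counts are not clustered, so they do not show how often intervals exclude 1 in these libraries. All 6 genes are named by rule, along with their fullest bins. The members and lists were chosen with earlier results of these data known. Other matrix genes (a list from Col5a1 to Fmod) were to be counted only with an annotation of the files' build and were not analysed here. The mutant library held 3273273 reads and the wild-type library 3305140. Alternatives covered repeated reads, flanks, scaling, window size, bin size, shift, background, threshold and each gene left out. Scripts ran in Python 3.11.15 with scipy 1.17.1, numpy 2.4.6, matplotlib 3.10.9 and pandas 2.3.3.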

Additional observations from a re-analysis of the deposited data

How the results depend on the processing

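Of 145 alternative ratios, 136 stayed within the 95% interval of the value reported, 9 left it and 0 turned a call to the other direction. For the summed window to flank ratio, leaving out Runx2 gave 0.754 (mutant) and 0.895 (wild type), leaving out Col3a1 gave 0.928 in the wild-type library, and equal weight per gene gave 0.861 in the mutant library. With flanks weighted by gene length, an alternative chosen after seeing the data, the sums were 0.975 and 0.997. The flank to the left on the chromosome alone gave 0.896 (mutant) and 0.786 (wild type) for Runx2 and 1.64 for wild-type Col1a1, and the flank to the right alone gave 1.39 and 1.45 for Runx2. The causes were not tested. The Sparc ratio between libraries ranged from 0.464 to 0.637 over 4 alternatives, all with intervals below 1. No bin of the genes was enriched under any of 6 alternatives in either library. No paired analysis was possible because each genotype has 1 library, and for the same reason no library could be left out. Depth limits single genes most, with 24 to 75 positions per library in all but Runx2.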
